A study of Bos taurus with 16 samples.

Results

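The fibrillar collagen chains examined here are COL1A1, COL1A2, COL2A1, COL3A1, COL5A2, COL11A1 and COL11A2, 7 of the 27607 genes measured in the prefrontal cortex (PFC) of cattle. They are the fibrillar chains on the list of differentially expressed genes drawn up by the study from this same contrast, and each was tied to the deposited gene with the same chromosome, start and end. They were thus chosen by their measured difference between the breeds, and that difference is given as a description without a test. The fibrillar chains COL5A1, COL5A3, COL24A1 and COL27A1 were not analysed here.

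Fibrillar collagens are long triple helices that assemble into the banded fibrils of connective tissue. COL1A1 and COL1A2 together form type I collagen, the main collagen of bone, tendon, skin and the meninges, and COL3A1 forms type III, which shares fibrils with type I in pliable tissues such as vessel walls. COL5A2 is a chain of type V, which sits inside type I fibrils and limits their width. COL2A1 forms the type II collagen of cartilage, and COL11A1 and COL11A2 are chains of type XI, its minor fibril partner. Brain parenchyma holds little fibrillar collagen, and most of what is known there lies in the leptomeninges and along larger vessels.

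The samples came from 8 Lidia bulls, a breed selected for aggressive behaviour, and 8 Wagyu bulls, a docile breed raised for meat, all non-castrated males. The Lidia bulls came from La Quinta (4) and Montealto (4), and the Wagyu bulls from 1 farm. All were 3 years old except Agg_8174, which was 4. Lidia bulls were sampled after the fight at the bullring and Wagyu bulls at a slaughterhouse, and the groups were fed differently, so breed, farm, place and preceding event cannot be told apart. Each animal is 1 library, and animals carry the names of their labels, Agg for Lidia and Non_agg for Wagyu.

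Levels are FPKM, fragments per kilobase of transcript scaled to the mapped fragments of an animal, summed over the transcripts of a gene and divided by a scaling factor per animal (median of ratios). Estimated depth lay between 7.67 M and 37.0 M (mega) fragments. The deposited values of Non_agg_5 (7.67 M fragments, factor 2.21) and Agg_8324 (13.7 M, factor 1.78) stood above the others, whose factors ran from 0.617 to 1.13. Neuron marker genes were present in every animal, with a summed FPKM of 372 to 564 in the Lidia bulls and 464 to 776 in the Wagyu bulls.

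The 7 genes lie on 6 chromosomes of the ARS-UCD 1.2 assembly. COL1A1 (ENSBTAG00000013103) is on chromosome 19 at 36457658 to 36474513, COL1A2 (ENSBTAG00000013472) on chromosome 4 at 11776554 to 11812997, and COL2A1 (ENSBTAG00000013155) on chromosome 5 at 32283180 to 32313172, all on the plus strand. COL11A1 (ENSBTAG00000021217) is on the plus strand of chromosome 3 at 40305057 to 40530663 and COL11A2 (ENSBTAG00000000601) on the minus strand of chromosome 23 at 7350323 to 7378810. COL5A2 (ENSBTAG00000027020, plus strand, 7198509 to 7357287) and COL3A1 (ENSBTAG00000021466, minus strand, 7375289 to 7414912) are neighbours on chromosome 2, end to end and 18001 bases apart, with 0 other genes of the annotation between them. One other annotated gene overlaps the span of COL5A2, and it was listed at 0 in these animals.

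What the members share in their gene structure is a repeat of exon lengths. A Gly-X-Y triplet of the helix is coded by 9 bases, and 79.3% of the 387 distinct exons of the members had a length that is a multiple of 9, against 13.0% of 230583 exons of the other spliced genes. Exons of exactly 54 bases, or 6 triplets, made up 42.1% of the members' exons and 0.404% of the others. The share of multiples of 9 ran from 61.0% in COL5A2, whose annotation holds 41 distinct exons, to 86.3% in COL3A1.

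The type I chains had the largest difference between breeds among the 7 members. COL1A1 ran from 0.812 through a median of 1.64 to 3.78 FPKM in the Lidia bulls and from 0.198 through 0.345 to 1.53 in the Wagyu bulls. Non_agg_3 was the only Wagyu bull above the lowest Lidia bull, and the next highest Wagyu value was 0.583. The mean of COL1A1 was 2.07 ± 1.19 FPKM (SD, n = 8) in Lidia and 0.506 ± 0.431 (SD, n = 8) in Wagyu, and the log2 difference was 1.86 ± 0.37 (SE), which is 3.63-fold on the scale of FPKM + 0.1.

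COL1A2, the other chain of type I, ran from 1.27 through 4.20 to 9.67 FPKM in Lidia and from 0.442 through 0.736 to 3.11 in Wagyu. Agg_8162 (9.67), Agg_8320 (8.56), Agg_8324 (7.81) and Agg_8314 (5.49) lay above every Wagyu bull, while Non_agg_3 (3.11) and Non_agg_4 (2.38) lay above the lowest Lidia bulls. Its mean was 5.03 ± 3.31 FPKM (SD, n = 8) in Lidia and 1.18 ± 1.00 (SD, n = 8) in Wagyu, with a log2 difference of 2.0 ± 0.47 (SE).

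COL3A1, the single chain of type III, separated the animals in much the same order. Its values ran from 0.906 through 2.17 to 6.54 FPKM in Lidia and from 0.352 through 0.533 to 2.89 in Wagyu, and 3 Lidia bulls (Agg_8162, Agg_8320 and Agg_8324) were above every Wagyu bull. The means were 2.64 ± 1.97 FPKM (SD, n = 8) and 1.00 ± 0.980 (SD, n = 8), and the log2 difference was 1.38 ± 0.48 (SE).

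COL5A2 ran from 0.520 through 1.65 to 2.60 FPKM in Lidia and from 0.612 through 0.812 to 1.48 in Wagyu. Of the 8 Lidia bulls, 6 exceeded the whole Wagyu group, but the lowest value of all 16 animals was also that of a Lidia bull, Agg_8165. The means were 1.60 ± 0.656 FPKM (SD, n = 8) and 0.929 ± 0.319 (SD, n = 8), with a log2 difference of 0.66 ± 0.27 (SE).

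COL2A1, the cartilage chain, was the lowest member in both breeds. It ran from 0.0596 through 0.129 to 0.859 FPKM in Lidia and from 0.0425 through 0.0830 to 0.183 in Wagyu, and the Lidia mean of 0.283 ± 0.305 (SD, n = 8) against 0.0984 ± 0.0466 (SD, n = 8) in Wagyu was carried by Agg_8320 (0.859), Agg_8324 (0.658) and Agg_8162 (0.269). The log2 difference was 0.65 ± 0.36 (SE). These levels stand for an estimated 4.22 to 106 fragments per animal, and the bounds that Cufflinks gave extended 14.3% to 70.7% of the value to either side, so COL2A1 is the least precise member at this depth.

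Of the type XI chains, COL11A1 had the smallest log2 difference of the 7 members and COL11A2 a larger one than COL5A2 and COL2A1. COL11A1 ran from 0.760 through 1.14 to 1.76 FPKM in Lidia and from 0.462 through 0.851 to 1.10 in Wagyu, with means of 1.14 ± 0.324 (SD, n = 8) and 0.815 ± 0.189 (SD, n = 8) and a log2 difference of 0.43 ± 0.17 (SE). COL11A2 ran from 3.74 through 5.38 to 8.46 FPKM in Lidia and from 1.48 through 3.50 to 5.70 in Wagyu, with means of 5.59 ± 1.60 (SD, n = 8) and 3.37 ± 1.44 (SD, n = 8) and a log2 difference of 0.79 ± 0.25 (SE). For both genes 4 Lidia bulls were above every Wagyu bull. The Lidia bull with the most COL11A2 was Agg_8312, which was among the lowest Lidia bulls for the type I chains.

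**Figure D1:**
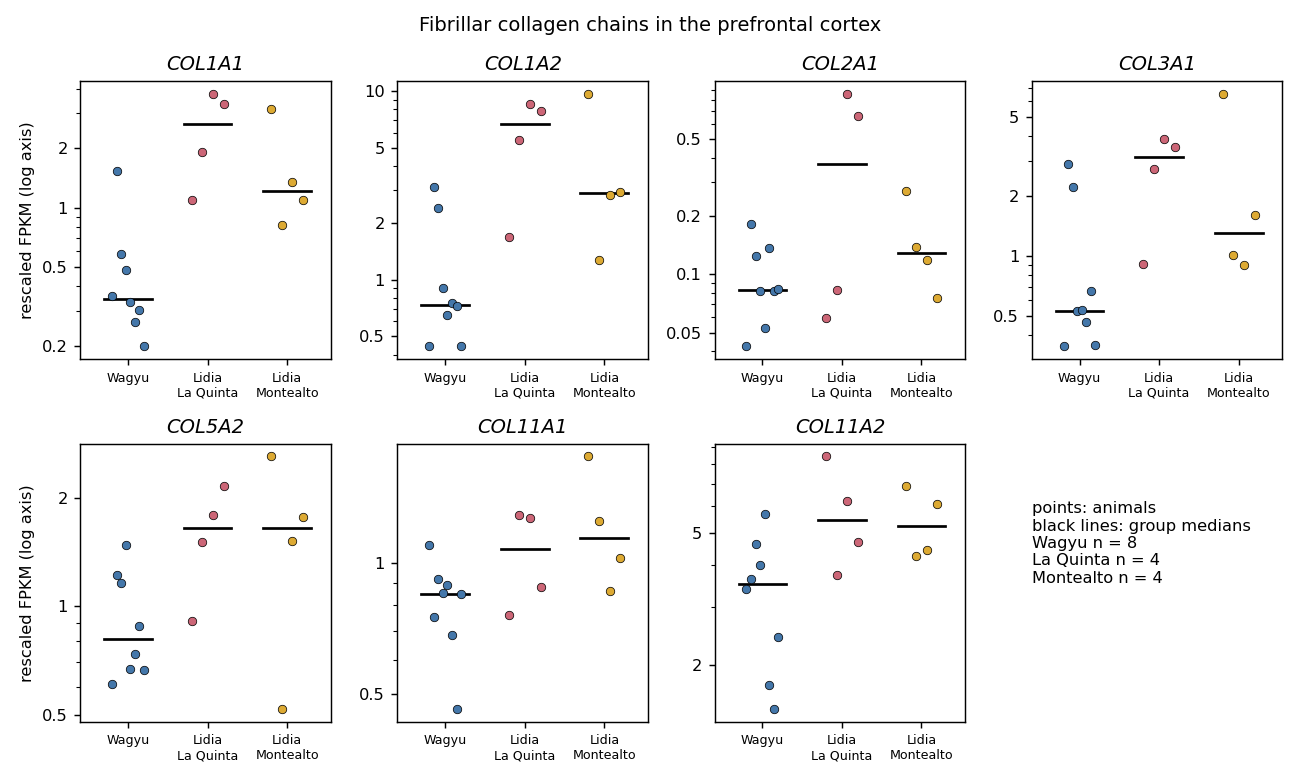
Rescaled FPKM (log axis) of each chain in each animal, with 8 Wagyu, 4 La Quinta and 4 Montealto bulls as points and group medians as black lines. For COL1A1, COL1A2 and COL3A1 the points spread widely within each group, Non_agg_3 (1.53 FPKM of COL1A1) reaches into the Lidia range, and the groups overlap in all 7 panels.

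By limma on log2(FPKM + 0.1), with a gene called where its adjusted p did not exceed 0.05 and its log2 difference was 0.1 or more in either direction, 2 of the 7 members (COL1A1 and COL1A2) were called between breeds, where 4.99% of all 16577 tested genes were called and 3.33% were called higher in Lidia. Since this contrast chose the members, nothing is read from that count. The median log2 difference was 0.79 over the members and -0.01 over all tested genes. On the FPKM as deposited, limma called 0 of 16614 genes, although 1022 had an unadjusted p under 0.05. There COL1A1 and COL1A2 differed by 1.81 ± 0.44 and 1.95 ± 0.53 (SE). COL1A1 was called under 24 of the 25 alternative settings and COL1A2 under 17 of 25. In bulk tissue, more cells of a type and more RNA per cell cannot be told apart.

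Non_agg_3 and Non_agg_4 stood apart from the other Wagyu bulls in COL1A2 and COL3A1. With both left out, the log2 differences were 2.2 for COL1A1, 2.49 for COL1A2 and 1.93 for COL3A1, against 0.79 for COL5A2, 0.92 for COL11A2, 0.77 for COL2A1 and 0.44 for COL11A1, and COL3A1 was then called as well. COL3A1 was also called without Non_agg_3 alone, and COL5A2 without Agg_8165 (0.85). The genes called rose at these settings too, from 827 of 16577 with all animals. They numbered 1290 of 16564 without Non_agg_3 and Non_agg_4, 1424 of 16564 without Non_agg_3 and 996 of 16544 without Agg_8165. Nothing is read from these added calls.

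Both farms were set against the same 8 Wagyu bulls, so their values are given side by side. La Quinta exceeded Wagyu by a log2 difference of 2.19 ± 0.44 (SE) for COL1A1, 2.32 ± 0.58 for COL1A2 and 1.60 ± 0.60 for COL3A1. Montealto exceeded Wagyu by 1.53 ± 0.44, 1.68 ± 0.58 and 1.16 ± 0.60 for the same genes. For COL11A2 the values were 0.81 ± 0.32 and 0.76 ± 0.32, and for COL5A2 0.72 ± 0.33 and 0.60 ± 0.33. COL1A1 was called for La Quinta, where 0.609% of the tested genes were called higher, and 0 of 7 members were for Montealto, where 1.28% were; nothing is read from these counts either. COL2A1 stood at 0.98 ± 0.42 for La Quinta and 0.31 ± 0.42 for Montealto, and COL11A1 at 0.33 ± 0.21 and 0.52 ± 0.21.

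**Figure D2:**
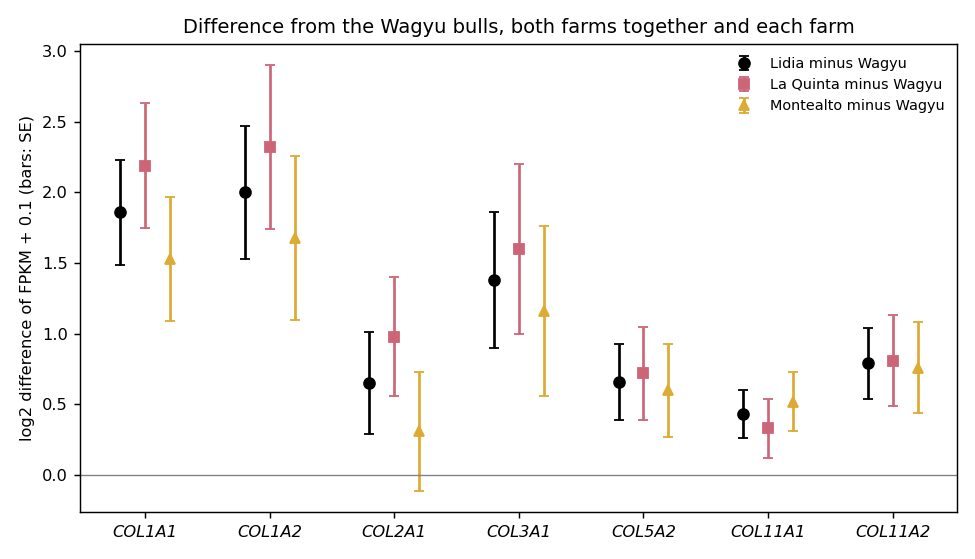
Log2 difference of FPKM + 0.1 from the 8 Wagyu bulls for all 8 Lidia bulls (circles), La Quinta (squares, n = 4) and Montealto (triangles, n = 4), with bars for the SE. All 21 points lie above 0, and COL1A1 and COL1A2 lie highest, at 1.86 and 2.0 for the breed.

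The farms within the Lidia breed did not enter the choice of members, and here the difference was tested. None of the 7 members was called between La Quinta and Montealto by limma (adjusted p from 0.843 to 0.983), and 0.0905% of the 16577 genes were. At an unadjusted p under 0.05 the count was 0 of 7 members, against 5.89% of all genes. The log2 difference, La Quinta minus Montealto, was 0.66 ± 0.51 (SE) for COL1A1 with a 95% interval of -0.41 to 1.74. For COL1A2 it was 0.63 ± 0.67 with an interval of -0.78 to 2.05, and for COL11A2 0.06 ± 0.37 with an interval of -0.72 to 0.84. With 4 bulls per farm these intervals leave room for differences of more than 1 log2 unit in COL1A1, COL1A2, COL2A1 and COL3A1.

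The spread between bulls of 1 farm was wide for several chains. Within La Quinta, COL1A2 was 1.69 FPKM in Agg_8312 and 5.49, 8.56 and 7.81 in Agg_8314, Agg_8320 and Agg_8324. Within Montealto it was 9.67 in Agg_8162 and 1.27, 2.80 and 2.92 in Agg_8165, Agg_8171 and Agg_8174. Each farm therefore held bulls at both ends of the Lidia range. The coefficient of variation within Lidia was 57.3% for COL1A1, 65.8% for COL1A2 and 74.7% for COL3A1, and it was highest for COL2A1 (108%). It was 41.1% for COL5A2, 28.5% for COL11A1 and 28.6% for COL11A2.

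FPKM is scaled by the length of the annotated transcripts, so levels of different chains can be set side by side only as far as that annotation holds. The sign tests here measure how steady a gap was over animals. A bias of 1 gene shared by all animals would give the same result. In both breeds COL11A2 had the highest mean, COL1A2 the next and COL3A1 the third, and COL2A1 the lowest. In Wagyu the means of COL1A2 and COL3A1 included the high values of Non_agg_3 and Non_agg_4, and by the median COL11A1 (0.851) and COL5A2 (0.812) stood above COL1A2 (0.736) and COL3A1 (0.533). COL3A1 exceeded COL5A2 in 2 of 8 Wagyu bulls, with a mean log2 ratio of -0.23 ± 0.85 (SD). COL11A2 (mean 3.37) exceeded COL1A2 (1.18) in 8 of 8 Wagyu bulls, by 1.64 ± 0.97 log2 units (SD; exact sign permutation test, p = 0.00781, adjusted p = 0.0187 over 12 neighbouring pairs of chains). In Lidia, COL11A2 (5.59) exceeded COL1A2 (5.03) in 4 of 8 bulls, and the 2 levels did not differ beyond their spread (0.42 ± 1.14 log2 units, exact sign permutation test, p = 0.328, adjusted p = 0.394).

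COL1A2 exceeded COL3A1 in all 8 bulls of both breeds, by 0.91 ± 0.38 log2 units (SD) in Lidia and 0.29 ± 0.22 in Wagyu (exact sign permutation tests, both p = 0.00781, the smallest that 8 animals allow, adjusted p = 0.0187). COL1A1, COL5A2 and COL11A1 followed in a different order in the 2 breeds: in Wagyu COL1A1 was below COL11A1 in 7 of 8 bulls (exact sign permutation test, p = 0.0391, adjusted p = 0.0781), while in Lidia its mean was above both. The neighbours from COL3A1 down to COL11A1 did not differ beyond their spread in either breed.

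The mean make-up of the 7 chains differed between the breeds, with overlapping ranges. It rests on the values that chose the members, so it is a description without a test. The type I and III chains made up 48.7% ± 15.1 (SD, n = 8) of the summed FPKM of the members in Lidia and 30.7% ± 14.0 in Wagyu, and the type XI chains 41.2% ± 16.0 and 55.2% ± 14.7. The summed level itself was 18.4 ± 7.59 FPKM in Lidia and 7.90 ± 3.35 in Wagyu. Agg_8312 had a make-up like that of most Wagyu bulls, with 66.4% type XI, and Non_agg_3 held 56.6% type I and III. Agg_8314, Agg_8320, Agg_8324 and Agg_8162 held 60.5% to 63.7% type I and III, and the other 4 Lidia bulls 26.6% to 42.2%.

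**Figure D3:**
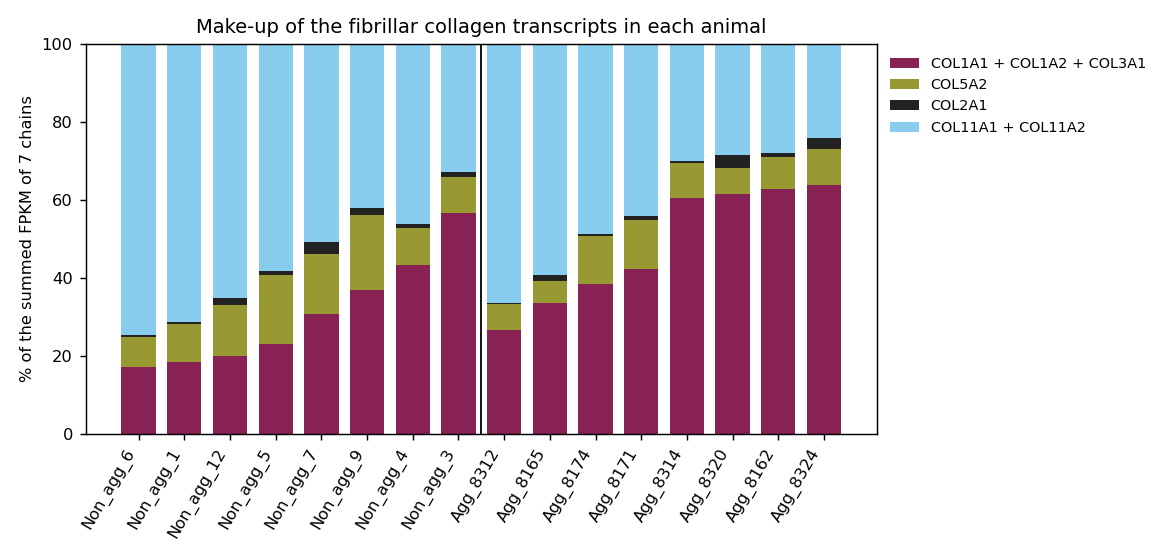
Share of each chain group in the summed FPKM of the 7 members (percent), 1 bar per animal, sorted within each breed by the share of COL1A1, COL1A2 and COL3A1, with a line between Wagyu and Lidia. That share runs from 17.2% (Non_agg_6) to 56.6% (Non_agg_3) in Wagyu and from 26.6% (Agg_8312) to 63.7% (Agg_8324) in Lidia.

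Ratios within an animal depend little on the scaling between animals. The RNA ratio of COL1A1 to COL1A2, the chains of type I collagen, had a similar median in both breeds but varied between bulls. The median was 0.437 in Lidia, with a range of 0.327 to 0.643, and 0.469 in Wagyu, with a range of 0.245 to 0.800. COL2A1, COL3A1, COL5A2, COL11A1 and COL11A2 were all lower relative to COL1A1 in Lidia. COL1A1 itself had a larger log2 difference between breeds than each of these chains. The median COL5A2/COL1A1 ratio was 0.804 in Lidia and 2.42 in Wagyu, COL11A1/COL1A1 was 0.653 and 2.19, and COL11A2/COL1A1 was 2.72 and 8.11. The medians of COL3A1/COL1A1 were 1.15 and 1.80, and those of COL2A1/COL1A1 were 0.0864 and 0.193. These breed values are descriptions.

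Between the farms, 0 of 7 ratios passed the exact two-sided permutation test over the 70 splits of the 8 Lidia bulls, whose smallest possible p is 0.0286, and 0 of 7 had an unadjusted p of at most 0.05. COL1A1/COL1A2 differed by 0.03 log2 units between farms (exact permutation test, p = 1.00, adjusted p = 1.00). COL5A2/COL1A1 had the smallest p, with a mean log2 ratio of -0.55 ± 0.37 (SD) in La Quinta and -0.005 ± 0.53 in Montealto (exact permutation test, p = 0.143, adjusted p = 0.600 over 7 ratios).

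Within a breed, correlations between chains do not use the difference in means between the breeds. The chains were still listed from these same animals, and whether that choice raised the correlations was not tested. Among the 8 Lidia bulls, COL1A1, COL1A2, COL3A1 and COL5A2 rose and fell together, with Pearson r from 0.76 to 0.96 over their 6 pairs. COL1A1 and COL1A2 had r = 0.96 (exact permutation test, p = 5.21e-04, adjusted p = 0.0198 over 42 pairs in both breeds) and Spearman rho = 0.90 (exact permutation test, p = 0.00456, adjusted p = 0.0639). COL1A2 with COL3A1 had r = 0.94 and rho = 0.90 (exact permutation tests, p = 0.00174 and 0.00456, adjusted p = 0.0243 and 0.0639), and COL1A2 with COL5A2 r = 0.88 and rho = 0.90 (p = 9.42e-04 and 0.00456, adjusted p = 0.0198 and 0.0639). Without the 2 bulls farthest from the median of the first gene, r was 0.97, 0.96 and 0.78.

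These 3 were the pairs of 21 in Lidia that passed the adjustment by Pearson r, and 7 had an unadjusted p of at most 0.05. Each farm holds 4 bulls, too few for a correlation of its own. With each farm centred on its own mean and pairings exchanged only within farms, the same 3 pairs had r = 0.97, 0.94 and 0.90 (exact permutation tests, adjusted p = 0.0547, 0.0608 and 0.0547 over 21 pairs), and 0 of 21 passed.

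COL2A1 followed COL1A1 (r = 0.84, rho = 0.74; exact permutation tests, p = 0.00955 and 0.0458, adjusted p = 0.0802 and 0.214), and r was 0.63 without Agg_8320 and Agg_8324, so part of that value rested on those 2 bulls. COL11A2 had r from -0.08 to 0.15 with the 6 other chains in Lidia, and none of these pairs had an unadjusted p of at most 0.05. COL11A1 had its highest r with COL3A1 (r = 0.68, rho = 0.76; exact permutation tests, p = 0.0664 and 0.0368, adjusted p = 0.227 and 0.193), which was 0.33 without Agg_8171 and Agg_8162.

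In the Wagyu bulls, Non_agg_3 and Non_agg_4 formed a separate cluster in COL1A2 and COL3A1, so pairs with these genes were taken over the other 6 bulls. There COL1A2 had r = 0.80 and rho = 0.89 with COL5A2 (exact permutation tests, p = 0.0361 and 0.0333, adjusted p = 0.169 and 0.193) and r = 0.78 with COL3A1 (rho = 0.49; exact permutation tests, p = 0.0778 and 0.356, adjusted p = 0.227 and 0.605). Without Non_agg_1 and Non_agg_12, which leaves 4 bulls, r was 0.94 with COL5A2 and -0.17 with COL3A1, so the relation to COL3A1 rested on those 2 bulls. Over all 8 Wagyu bulls COL1A1 had r = 0.67 and rho = 0.62 with COL5A2 (exact permutation tests, p = 0.0474 and 0.115, adjusted p = 0.199 and 0.336). None of the 21 Wagyu pairs passed the adjustment, and 3 had an unadjusted p of at most 0.05.

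The third of these was COL11A1 with COL11A2, the 2 chains that share type XI collagen. They had r = 0.74 and rho = 0.69 over 8 Wagyu bulls (exact permutation tests, p = 0.0297 and 0.0694, adjusted p = 0.156 and 0.291) and r = -0.08 and rho = -0.17 over 8 Lidia bulls (p = 0.850 and 0.703, adjusted p = 0.916 and 0.854). Without Non_agg_1 and Non_agg_9 the Wagyu value was 0.77. Whether the breeds differ in this correlation was not tested.

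**Figure D4:**
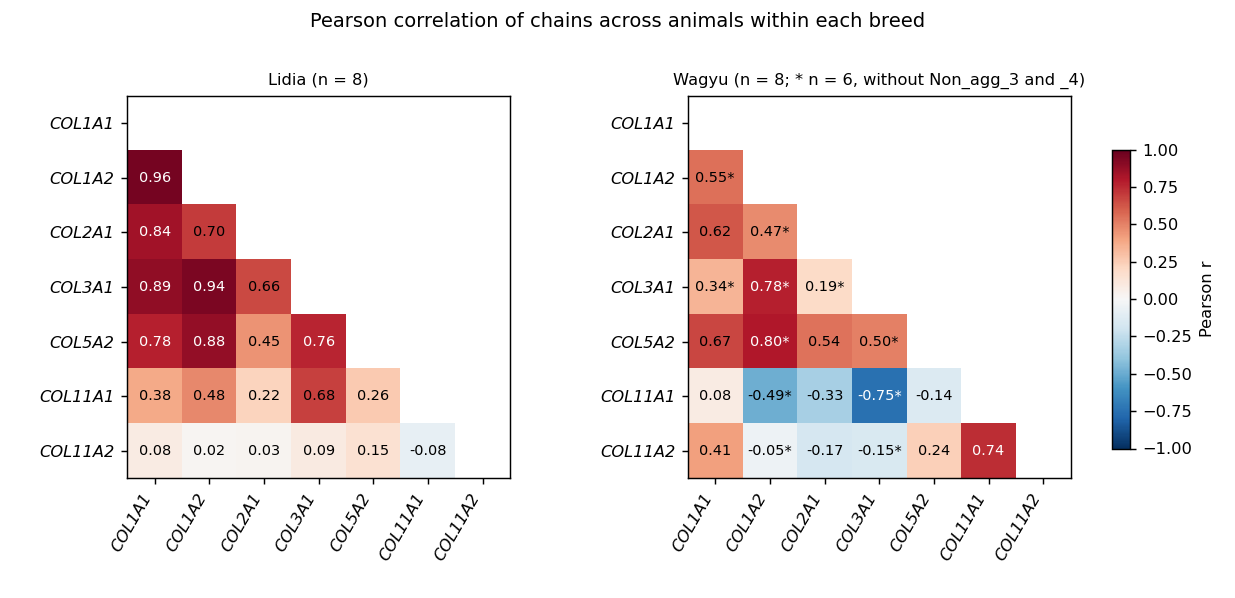
Pearson r between chains across animals, for Lidia (left, n = 8) and Wagyu (right, n = 8, or 6 where marked by an asterisk), with colour from -1 (blue) to 1 (red). In Lidia the 6 pairs of COL1A1, COL1A2, COL3A1 and COL5A2 lie between 0.76 and 0.96 and the COL11A2 row between -0.08 and 0.15.

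The summed markers of leptomeningeal fibroblasts moved with COL1A2 and COL3A1 in the Lidia bulls. Of 14 such markers, 11 could be named, and, as for every marker list here, only because the study listed them as differing between the breeds, so their direction was fixed by that choice. Among them were ALDH1A2, which makes retinoic acid, the organic anion carriers SLC22A6 and SLC22A8, the sulphate carrier SLC13A4, and the transcription factors FOXC2, TBX18 and ZIC1. Their summed FPKM ran from 14.4 through 43.9 to 108 in Lidia and from 5.92 through 7.36 to 28.9 in Wagyu. The highest bulls were Agg_8162 (108), Agg_8320 (79.7), Agg_8324 (71.3) and Agg_8314 (59.7), the same 4 that led COL1A2, and the 2 highest Wagyu bulls were Non_agg_3 (28.9) and Non_agg_4 (27.3). None of the 11 markers was at 0 in any animal, and 6 of the 11 were called higher in Lidia, where 3.33% of all tested genes were. Nothing is read from that count.

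Within the 8 Lidia bulls, COL1A2 followed this sum with r = 0.99 and rho = 1.00 (exact permutation tests, p = 2.48e-05 and 4.96e-05, the smallest that 8 animals allow, adjusted p = 0.00330 and 0.00660 over 133 pairs of a chain and a marker list). COL3A1 followed it with r = 0.98 and rho = 0.90 (exact permutation tests, p = 2.23e-04 and 0.00456, adjusted p = 0.0148 and 0.121). COL1A1 had r = 0.94 and COL5A2 r = 0.83 (exact permutation tests, adjusted p = 0.0863 for both), COL11A1 had r = 0.59 (adjusted p = 0.401) and COL11A2 r = 0.02 (adjusted p = 0.987). Without the 2 bulls farthest from the median of the sum, r was 0.99 for both COL1A2 and COL3A1, and these were the only 2 of the 133 relations to pass by Pearson r. These relations were computed after the values had been seen. Chains and markers were both listed from these same animals, so the p-values are not free of that choice. The median of the sum was 65.5 FPKM in La Quinta and 24.5 in Montealto. With each farm centred on its own mean and pairings exchanged within farms, r was 0.98 for both COL1A2 and COL3A1 (exact permutation tests, p = 0.00174 and 0.00521, adjusted p = 0.109 for both over 63 relations). Of these 63, 0 passed and 11 had an unadjusted p of at most 0.05, and with a smallest possible p of 0.00174 a relation on its own cannot go below an adjusted p of 0.109.

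In the 6 Wagyu bulls other than Non_agg_3 and Non_agg_4, COL3A1 had r = 0.87 and rho = 0.94 with the same sum (exact permutation tests, p = 0.0167 for both, adjusted p = 0.171 and 0.277), and COL1A2 had r = 0.64 (exact permutation test, p = 0.153, adjusted p = 0.406). COL1A1 had r = 0.33 and rho = 0.20 (exact permutation tests, p = 0.492 and 0.714, adjusted p = 0.760 and 0.931), and COL11A1 had r = -0.79 (exact permutation test, p = 0.0528, adjusted p = 0.323). Other lists gave values as high in Wagyu. COL1A1 had r = 0.91 with the mural, 0.89 with the endothelial and 0.85 with the bone and cartilage sum over 8 bulls (exact permutation tests, adjusted p = 0.0948, 0.0919 and 0.0863), which were 0.37, 0.44 and 0.45 without the 2 bulls farthest from the median of the sum. COL3A1 had r = 0.95 with the single named blood marker over 6 bulls (exact permutation test, adjusted p = 0.103). None of the 70 Wagyu relations passed, and 10 had an unadjusted p of at most 0.05.

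Per unit of the leptomeningeal sum, the breeds held similar COL1A1 and COL1A2. The COL1A2 level divided by the sum had a median of 0.105 in Lidia (0.0887 to 0.134) and 0.0927 in Wagyu (0.0697 to 0.117), a log2 difference of 0.05 beside a within-breed SD of 0.20 and 0.26. For COL1A1 the log2 difference was -0.09 beside an SD of 0.47 and 0.53. For COL3A1 it was -0.57 beside an SD of 0.25 and 0.18. COL5A2, COL2A1, COL11A1 and COL11A2 were lower per unit of the sum in Lidia, by log2 values of -1.29, -1.30, -1.52 and -1.16. DCN and LUM, markers that themselves coat collagen fibrils, are part of the sum. Without them the difference was -0.21 for COL1A2, beside an SD of 0.42 in Lidia and 0.47 in Wagyu. It was -0.35 for COL1A1 (SD 0.76 and 0.80) and -0.83 for COL3A1 (SD 0.50 and 0.30). The r of COL1A2 with that smaller sum within Lidia was 0.98. These ratios describe the same animals that chose the members, and the part of the leptomeningeal markers in the breed difference was not tested.

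**Figure D5:**
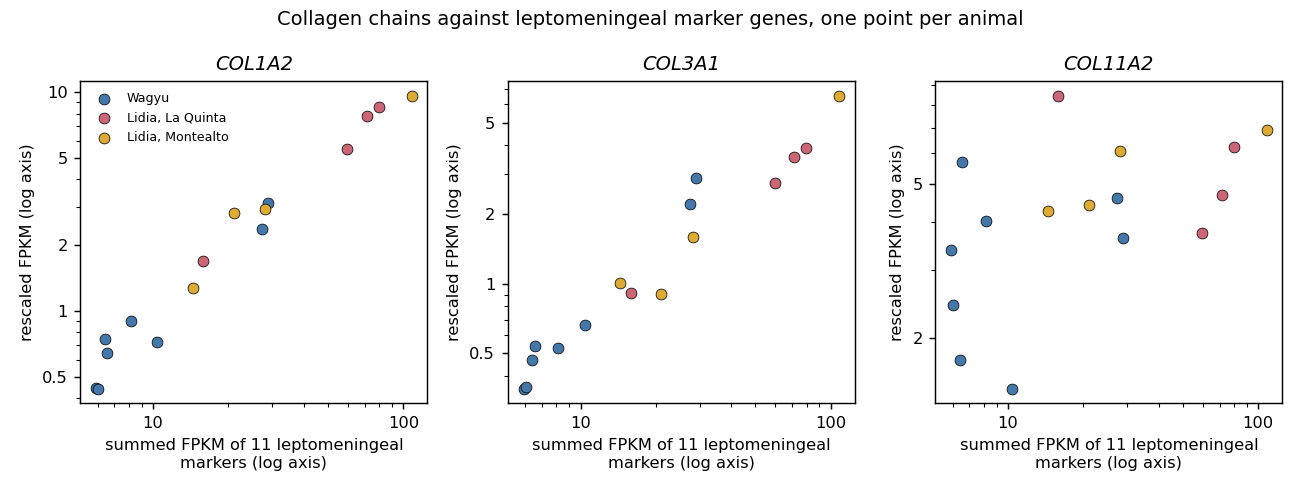
Rescaled FPKM of COL1A2, COL3A1 and COL11A2 against the summed FPKM of 11 leptomeningeal markers (both log axes), 1 point per animal, coloured by Wagyu, La Quinta and Montealto. COL1A2 rises with the sum from Non_agg_1 (5.92 on the x axis) to Agg_8162 (108), and COL11A2 shows no such order, with its highest value of 8.46 FPKM at a sum of 15.9.

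The other marker lists did not all follow the order of the leptomeningeal sum. Agg_8165 had the lowest leptomeningeal sum of the Lidia bulls (14.4). That bull had the highest Lidia sums of the mural (47.1), astrocyte (507), oligodendrocyte (377) and microglia (50.7) markers. The named choroid plexus marker, TTR, ran from 1.05 to 1.78 FPKM in La Quinta and from 7.51 to 18.8 in Montealto. TTR was not called between farms. Of 18 bone and cartilage markers 3 could be named, CHADL, DMP1 and the calcification inhibitor MGP, and their sum was 9.75 to 38.6 FPKM in Lidia and 3.20 to 18.6 in Wagyu. Agg_8162 (38.6) and Non_agg_3 (18.6) and Non_agg_4 (15.3) were the highest of their breeds. The median log2 difference between breeds was 0.84 over 4 mural, 0.60 over 4 microglia, 0.57 over 5 astrocyte, 0.49 over 7 oligodendrocyte and -0.42 over 6 neuron markers.

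The 7 named endothelial markers of 8 summed to 36.6 to 127 FPKM in Lidia and 19.1 to 45.5 in Wagyu, with a median log2 difference of 0.87. The highest sum was that of Agg_8165, which had the lowest COL1A1, COL1A2 and COL5A2 of the Lidia bulls, and 97.5 of its 127 FPKM were the tight-junction gene CLDN5. Without CLDN5 the sum was 29.6 in that bull and 14.9 to 25.7 in the other Lidia bulls. The breed-centred r with COL1A1 over 16 animals was -0.10 for CLDN5, 0.78 for the endothelial cadherin CDH5 and 0.69 for the VEGF receptor KDR.

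In the Lidia bulls, 4 chains had an unadjusted p of at most 0.05 with the summed neuron markers by Pearson r, all with negative r. The values were r = -0.84 for COL1A1, -0.78 for COL1A2, -0.87 for COL2A1 and -0.76 for COL3A1 (exact permutation tests, p = 0.0148, 0.0307, 0.00342 and 0.0375, adjusted p = 0.166, 0.227, 0.0863 and 0.25), and none of these passed the adjustment. Within farms the same values were -0.90, -0.80, -0.91 and -0.76 (exact permutation tests, adjusted p = 0.141, 0.194, 0.141 and 0.199). COL5A2 had r = -0.57 and COL11A1 r = -0.44 in Lidia (exact permutation tests, adjusted p = 0.401 and 0.559). COL11A2 had r = 0.18 (exact permutation test, p = 0.665, adjusted p = 0.831). In Wagyu, r was -0.86 for COL1A2 and -0.65 for COL3A1 over 6 bulls. Over 8 Wagyu bulls it was -0.51 for COL1A1, -0.78 for COL2A1 and -0.54 for COL5A2. COL11A1 (0.59) and COL11A2 (0.26) went the other way there, and none of the Wagyu values passed the adjustment. The part of these cell types in the collagen levels was not tested.

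The genes whose pattern was most like each chain were sought among the 1156 other named genes, as a description. These are tested genes that the study listed as differing between the breeds, not all genes. The measure was the Pearson r of log2 values centred within each breed over 16 animals. Non_agg_3 and Non_agg_4 were kept in, although they form a separate cluster in COL1A2 and COL3A1. With them, the Wagyu r of COL1A1 was 0.88 with COL1A2 and 0.86 with COL3A1. Without them these values were 0.55 and 0.34. COL1A2 with COL5A2 went the other way, with 0.73 and 0.80. For COL1A1 the genes most alike were FMOD (0.95), a proteoglycan of collagen fibrils, AEBP1 (0.93), a collagen-binding protein, and the complement component C7 (0.93). For COL1A2 they were the matrix proteins EFEMP1 (0.98) and FBLN1 (0.97), and the receptor FGFR1 (0.97), and for COL3A1 VIM (0.98), the intermediate filament of mesenchymal cells, KANK2 (0.98) and AEBP1 (0.98). COL5A2 was closest to the hyaluronan-degrading CEMIP (0.90), WWTR1 (0.88) and ENSBTAG00000050875 (0.87). COL2A1 was closest to ALDH1A1 (0.82), MDFIC2 (0.78) and CRTAP (0.78), which acts in collagen proline hydroxylation.

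The type XI chains had weaker and different neighbours. COL11A1 was closest to DOCK5 (0.72), FOLH1B (0.71) and SMIM1 (0.69), and COL11A2 to ENSBTAG00000048980 (0.72), BOLA-DMB (0.64) and ACP5 (0.63), the phosphatase of osteoclasts and macrophages. Among all 16576 other tested genes, COL1A2 ranked 5 in likeness to COL1A1 and COL3A1 ranked 12 in likeness to COL1A2, whereas COL11A2 ranked 4324 in likeness to COL1A1. COL11A1 ranked 955 in likeness to COL11A2 (r = 0.39), a value that pools r = 0.74 in Wagyu with -0.08 in Lidia. Among the 1150 named genes outside the members, their mean was most like FBLN1, EFEMP1, AEBP1 and SEMA3B (0.96 each) and PROS1 (0.95). It was least like the neuronal genes SYNPR (-0.86), NEUROD2 (-0.71) and CRHBP (-0.68).

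The proteins that make and hold fibrils were named only where the study listed them, so their direction was fixed by that choice. That choice also favoured genes called between the breeds. Of all tested genes 3.33% were called higher in Lidia, and nothing is read from the counts of called genes. Of 21 collagen folding and modification enzymes 5 were named, and 2 were called higher in Lidia, CRTAP (log2 difference 0.58 ± 0.15, SE) and FKBP14 (0.49 ± 0.14). SERPINH1, the collagen chaperone HSP47, stood at 4.98 ± 1.39 FPKM (SD, n = 8) in Lidia and 3.32 ± 1.01 in Wagyu and was not called. The median difference of the 5 was 0.57, below that of the type I chains themselves.

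Of 13 genes of procollagen cleavage and cross-linking 2 were named, and PCOLCE, the enhancer of C-propeptide removal, was called (1.19 ± 0.20, SE) while the lysyl oxidase LOXL1 was not (0.53 ± 0.19). Of 21 fibril surface partners 10 were named and 3 were called higher: DCN (1.79 ± 0.38), BGN (0.86 ± 0.22) and COL14A1 (1.06 ± 0.25). POSTN was the most variable, from 0.290 to 20.0 FPKM in Lidia and from 0.0830 to 7.25 in Wagyu. Of 16 collagen receptors and degrading enzymes 3 were named and all 3 were called higher, the uptake receptor MRC2 (1.11 ± 0.24), the gelatinase MMP2 (1.2 ± 0.23) and the collagenase MMP14 (1.52 ± 0.36). Nothing is read from these counts either, beside the 3.33% of all tested genes that were called higher. Between the farms, 0 of these 20 genes were called by limma (adjusted p from 0.753 to 0.993), where 0.0905% of all tested genes were.

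The annotated transcripts of a chain did not all share in its level. COL1A2 was carried by ENSBTAT00000072738, at 3.37 ± 1.96 FPKM (SD, n = 8) in Lidia and 0.870 ± 0.669 in Wagyu, and by ENSBTAT00000033863, which was above 0 in 7 Lidia and 5 Wagyu bulls and held a median of 29.5% and 15.5% of the gene. COL5A2 was split over 3 transcripts, of which ENSBTAT00000069045 had a breed-centred r of 0.75 with COL1A1 over 16 animals, ENSBTAT00000071369 0.49 and ENSBTAT00000038684 0.34. COL11A2 came from ENSBTAT00000000793 for at least 94.4% of its level in every animal. Cufflinks divides fragments between overlapping transcripts by estimation, so these splits are less certain than the gene sums.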

How the data were processed

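RNA-seq (poly(A) selected, stranded TruSeq libraries, paired-end reads of 100 bases) was made once per animal, for 16 bulls. The authors mapped reads with STAR 2.7.3a to ARS-UCD 1.2 and estimated transcript abundance with Cufflinks 2.2.1, and the deposited FPKM of 43984 transcripts is scaled to the mapped fragments within an animal only. The comparison columns of other tables were not used.

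Here FPKM was summed per gene and rescaled by median of ratios over the 15998 genes above 0 in all 16 animals. Genes averaging 0.1 FPKM or more were fitted by limma 3.58.1 (R 4.3.3) after adding 0.1 and taking log2 (variance trend, two-sided, Benjamini-Hochberg), 2 groups for the breeds and 3 for the farms. Correlations and ratios used exact permutation over animals in Python 3.11.15 with numpy 2.4.6 and scipy 1.17.1. Clusters in a breed were taken as separate where the largest gap between log2 values exceeded 0.5 of the range with at least 2 animals on both sides. Procedures were tested on simulated data.

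Names came from the study's gene list by position (1161 of 1197 entries paired, and 53 of 55 entries named by an Ensembl identifier met their own). The farm of each Lidia bull came from the study's sample table. The members and lists were chosen with earlier results of these data known. Genes named beside the members are the 3 most like each chain, the 5 most and 3 least like their mean, and list genes that could be paired. Fragments per animal were estimated as coverage over FPKM, counting 200 bases for a fragment, and the error of a gene was taken from the spread between animals, since no read counts were used. Alternatives were the deposited FPKM, upper-quartile scaling, pseudocounts of 1 and 0.01, a mean of at least 1, no filter, no trend, 8 Lidia bulls only, and leaving out animals. Sequences were not used here.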

Additional observations from a re-analysis of the deposited data

Results flagged for a closer look

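Of 56 sets of values checked for an animal standing apart (7 chains and 7 ratios, each in both breeds and both farms), 4 were flagged, and chance alone flags about 1 in 20. Of these, 3 concern Non_agg_3 and all use its COL1A1 level, so they are not independent of each other. Its COL5A2 (1.22 FPKM) and COL11A1 (0.753) lay within the range of the other Wagyu bulls. Its COL1A1 level was 1.53 FPKM, where the next highest Wagyu bull had 0.583. Its log2 COL5A2/COL1A1 ratio was -0.30, next to 0.64 in the nearest Wagyu bull, and its log2 COL11A1/COL1A1 ratio was -0.93, next to 0.48. The same bull had the highest leptomeningeal marker sum of the Wagyu bulls (28.9 FPKM). The fourth is COL3A1 in Agg_8162, at 6.54 FPKM where the next Montealto bull had 1.60, and that bull had the highest leptomeningeal sum of all (108 FPKM). The part of those markers in these values was not tested.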

How the results depend on the processing

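The log2 difference between breeds kept its sign for all 7 members under all alternatives run. It ran from 0.98 to 2.2 for COL1A1, with 0.98 at a pseudocount of 1, and from 1.37 to 2.49 for COL1A2. For COL11A1 it ran from 0.23 to 0.49, and for COL2A1 from 0.19 to 0.93, at pseudocounts of 1 and 0.01. The genes called between breeds numbered 827, but 0 on the FPKM as deposited, 207 without Non_agg_5 and Agg_8324, 1290 without Non_agg_3 and Non_agg_4 (chosen after seeing the data), and 363 to 1424 when 1 animal was left out. Without Non_agg_3 alone the count was 1424, without Non_agg_12 it was 363. COL1A2 lost its call without Non_agg_6, Non_agg_9 or Non_agg_12, without Agg_8320, Agg_8324 or Agg_8162, without Non_agg_5 and Agg_8324 together, and as deposited.

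Between farms, 15 genes were called, against 6 as deposited, 8 at a mean FPKM of at least 1, 8 without Non_agg_5 and Agg_8324, 7 with the 8 Lidia bulls only, and 6 to 14 with 1 animal left out. As deposited, the median difference of all genes between farms was 0.32. The farm difference of COL5A2 was -0.04 without Non_agg_5 and Agg_8324 and -0.31 to 0.39 with 1 animal left out, that of COL11A1 was 0.13 as deposited, and that of COL11A2 -0.14 to 0.24 with 1 left out. The farm difference of COL1A1/COL1A2 was -0.06 at a pseudocount of 1 and -0.14 to 0.21 with 1 animal left out, that of COL2A1/COL1A1 -0.19 and -0.21 to 0.27, that of COL3A1/COL1A1 -0.52 to 0.003 and that of COL11A1/COL11A2 -0.53 to 0.08. None of these values passed a test.

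The correlated pairs numbered 3 in Lidia, against 11 as deposited, where the scaling factor of each animal was not divided out. The part of that factor in the rise was not tested. The correlated pairs numbered 0 within farms and 0 to 4 with 1 bull left out. They numbered 0 without Agg_8312, Agg_8320 or Agg_8324, where r of COL1A1 and COL1A2 was still 0.96. In Wagyu they numbered 0, against 8 as deposited, 1 at a pseudocount of 0.01 and 0 to 1 with 1 bull left out. The Lidia r of COL11A1 and COL11A2 was 0.45 as deposited and -0.48 to 0.42 with 1 bull left out. The Lidia relations of COL1A2 and COL3A1 to the leptomeningeal sum kept r = 0.98 within farms, chosen after seeing the data, without passing (adjusted p = 0.109). Except where stated, the cause was not tested. No paired analysis was possible because the labels of the breeds share no replicate numbers.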
